A study of Sus scrofa with 11 samples.

Results

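Toll-like receptors (TLRs) are sensors that recognise microbial and damage-derived molecules, and 8 of them, TLR1 to TLR8, were examined in pig carotid artery together with LY96, the co-receptor of TLR4, and MYD88, the adaptor of most TLRs. These 10 genes were taken by name from a table of 35670 genes. Each name occurred once, and all 10 genes passed the filter on low counts that left 15930 genes for testing. Polyadenylated RNA was sequenced from pigs (Sus scrofa) fed a Western diet, rich in fat and calories, over 12 weeks. Control animals were infused every week, under general anaesthesia, with single-walled carbon nanotubes at 400 nM (SWNT). Treated animals were infused on the same schedule with 400 nM of SWNT-SHP1i, the same nanotubes loaded with a chemical that blocks the phosphatase SHP-1. Both groups therefore shared the diet, the anaesthesia and the nanotube carrier, and no animal without nanotubes was part of the comparison. The labels used here name no strain, age or sex. The comparison addresses how RNA levels of the artery differ when the infused nanotubes carry the inhibitor. Which cells took up the inhibitor was not measured here. Counts of 5 SWNT animals (replicates 1 to 5) and 5 SWNT-SHP1i animals (replicates 1, 2, 3, 5 and 6) were compared. SWNT-SHP1i replicate 4, an animal that died before harvest, was not analysed here.

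TLRs work in pairs at fixed places in the cell. TLR4 with LY96 (also called MD-2) binds bacterial lipopolysaccharide that CD14 delivers, TLR2 binds lipoproteins when paired with TLR1 or TLR6, and TLR5 binds flagellin, all at the cell surface. TLR3, TLR7 and TLR8 read RNA inside endosomes. After binding, most TLRs recruit MYD88 and IRAK kinases, while TLR3 uses TICAM1 (TRIF) and TLR4 uses both, and both routes lead to NF-kB and IRF transcription factors and to inflammatory cytokines. In the artery wall macrophages carry most of these receptors, and endothelial and smooth muscle cells carry some.

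The genes lie on 7 chromosomes of Sscrofa11.1 by the coordinates of the deposited table. TLR1 (chromosome 8, 30147624 to 30155466, minus strand) and TLR6 (chromosome 8, 30159754 to 30180650, minus strand) are neighbours 4287 bases apart, and TLR2 lies farther along the same chromosome (75411993 to 75428330, minus strand). TLR7 (chromosome X, 9550792 to 9577348, plus strand) and TLR8 (chromosome X, 9597604 to 9616757, plus strand) are 20255 bases apart. TLR4 is on chromosome 1 (258044610 to 258058970, plus strand), LY96 on chromosome 4 (61926064 to 61950697, minus strand) and TLR5 on chromosome 10 (19387666 to 19410024, minus strand). MYD88 is on chromosome 13 (22966137 to 22983109, plus strand) and TLR3 on chromosome 15 (46969006 to 46979291, plus strand). TLR1 and TLR6 are close relatives in sequence, so reads may be split between them. The MYD88 row shares 2441 exon bases with ACAA1 on the opposite strand. Since no source used here gives the strand setting of the counting, reads of MYD88 and ACAA1 in those bases cannot be told apart. TLR1 and TLR6 overlap the span of FAM114A1 on the opposite strand, with 0 shared exon bases. Mean counts were 4096.6 for FAM114A1, 223.7 for TLR1 and 182.3 for TLR6. Whether FAM114A1 reads from outside its exons were counted for TLR1 or TLR6 was not tested.

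Total counts ran from 27593564 to 47718854 per library, and 3 libraries stood apart at low counts. In 7 libraries 16% to 17.7% of the detected genes had fewer than 10 counts. That share was 11.9% in SWNT-SHP1i replicate 6, 5.23% in SWNT replicate 3 and 1.52% in SWNT-SHP1i replicate 3. From 5 counts upwards, the bin of 4 counts that held most genes was 5 to 8 in 9 libraries and 41 to 44 in SWNT-SHP1i replicate 3. That library detected 14497 genes, against 17259 to 19942 elsewhere. The 5th percentile of its non-zero counts was 36, against 2 to 8 in the other 9 libraries, so values of 0 to about 50 counts in it carry little precision. Of the tissue markers, 10 of 10 smooth muscle genes were tested, with a summed level of 40193 to 59275 CPM (gene counts relative to library size after TMM scaling) in SWNT and 17854 to 49929 CPM in SWNT-SHP1i. All 10 had negative fold changes (median -0.62, 0 called, 4 at an unadjusted p under 0.05), the opposite sign to most members, and 8 of 10 did without SWNT-SHP1i replicates 3 and 6 (median -0.33). Of 9 fibroblast markers, 9 had positive fold changes (median 0.32, 0 called), with a summed level of 40926 to 83871 CPM in SWNT and 70141 to 104775 CPM in SWNT-SHP1i.

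**Figure D1:**
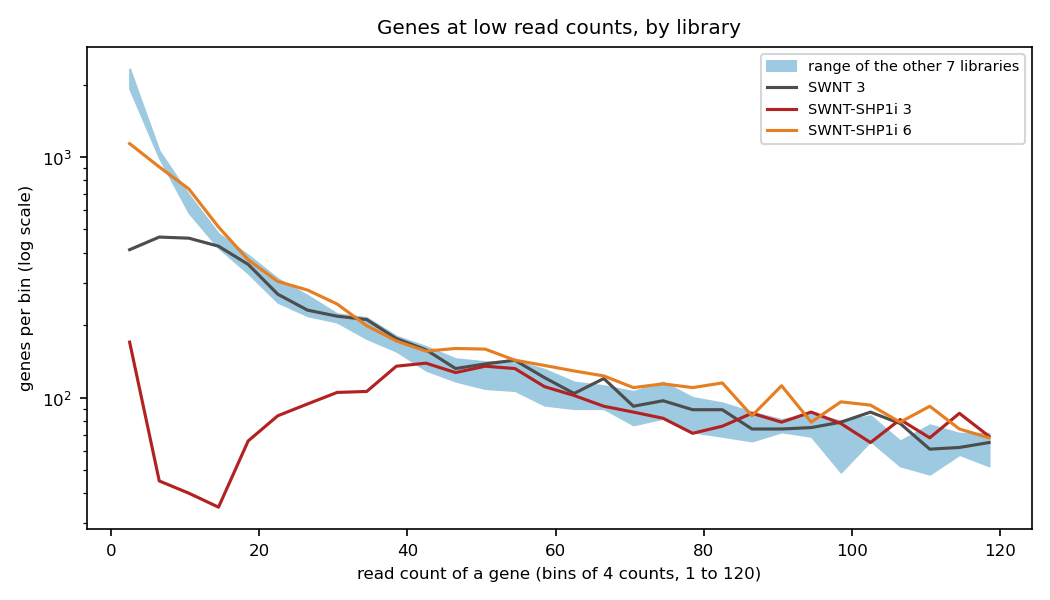
Number of genes (log axis) at each read count from 1 to 120, in bins of 4 counts, for SWNT replicate 3, SWNT-SHP1i replicates 3 and 6 and, as a band, the range of the other 7 libraries. The curve of SWNT-SHP1i replicate 3 has its top above 4 counts at 41 to 44, and those of the other 9 libraries have theirs at 5 to 8.

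None of the 10 genes passed the test between the groups. With edgeR's quasi-likelihood test and Benjamini-Hochberg adjustment, 0 of 10 members and 0 of all 15930 genes (0%) had an adjusted p under 0.05, and the members' adjusted p lay between 0.997 and 0.9997. At an unadjusted p under 0.05 there were 2 members, TLR7 and MYD88, where 4.64% of all genes tested reached that level and 3.49% reached it with a higher level in SWNT-SHP1i, as both members did. DESeq2 and limma-voom with quality weights also called 0 members. At an unadjusted p under 0.05 they had 3 and 5 members, and 986 and 1385 of all 15930 genes. There were 0 members at that level over the animals with B9 numbers, which leaves out both replicates 3 (539 of 16048 genes were). The same held without SWNT-SHP1i replicates 3 and 6 (534 of 16576 genes) and without SWNT replicate 3 as well (544 of 16370). The log2 fold change of SWNT-SHP1i over SWNT was above 0 in 8 of 10 members and in 50.8% of all genes tested, and its median was 0.55 over the members and 0.0056 over all genes. In 10 of 10 members the 2 groups overlapped, as they did in all but 0.358% of the genes tested.

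Markers of macrophages also had mostly positive fold changes. The complement genes C1QA, C1QB and C1QC, the most abundant macrophage markers per kilobase, had log2 fold changes of 0.96 ± 0.44, 0.93 ± 0.40 and 0.85 ± 0.41. Of 17 macrophage markers, 17 were tested and 16 had positive fold changes, with 0 called, a median log2 fold change of 0.96 and a summed level of 481 to 1365 CPM in SWNT and 495 to 2368 CPM in SWNT-SHP1i. Of 12 neutrophil markers, 8 were tested and 8 were positive, with 0 called and a summed level of 6.41 to 17.1 CPM in SWNT and 5.55 to 355 CPM in SWNT-SHP1i. At an unadjusted p under 0.05 by edgeR were 12 of 17 macrophage and 5 of 8 tested neutrophil markers, all higher in SWNT-SHP1i. Of all genes tested, 3.49% reached that level with a higher value in SWNT-SHP1i. The most abundant neutrophil markers, MMP9, PGLYRP1 and S100A8, had log2 fold changes of 5.54 ± 1.79, 3.53 ± 1.01 and 2.93 ± 1.68, which rested on few libraries. MMP9 had 1.23 without SWNT-SHP1i replicate 6. Without SWNT-SHP1i replicates 3 and 6, MMP9 had -0.026, S100A8 -1.31 and PGLYRP1 2.12, and the neutrophil list had 5 positive and 3 negative fold changes with a median of 0.60. S100A8 had 5.12 without SWNT replicate 3. The macrophage list kept 16 positive fold changes of 17 without SWNT-SHP1i replicates 3 and 6, with a median of 0.74. S100A12, PADI4, MPO and LTF did not pass the filter, and no marker of either list was at 0 in every library. The part of these cell types in the members' values was not tested. In whole artery, fewer cells of a type and less RNA per cell cannot be told apart.

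**Figure D2:**
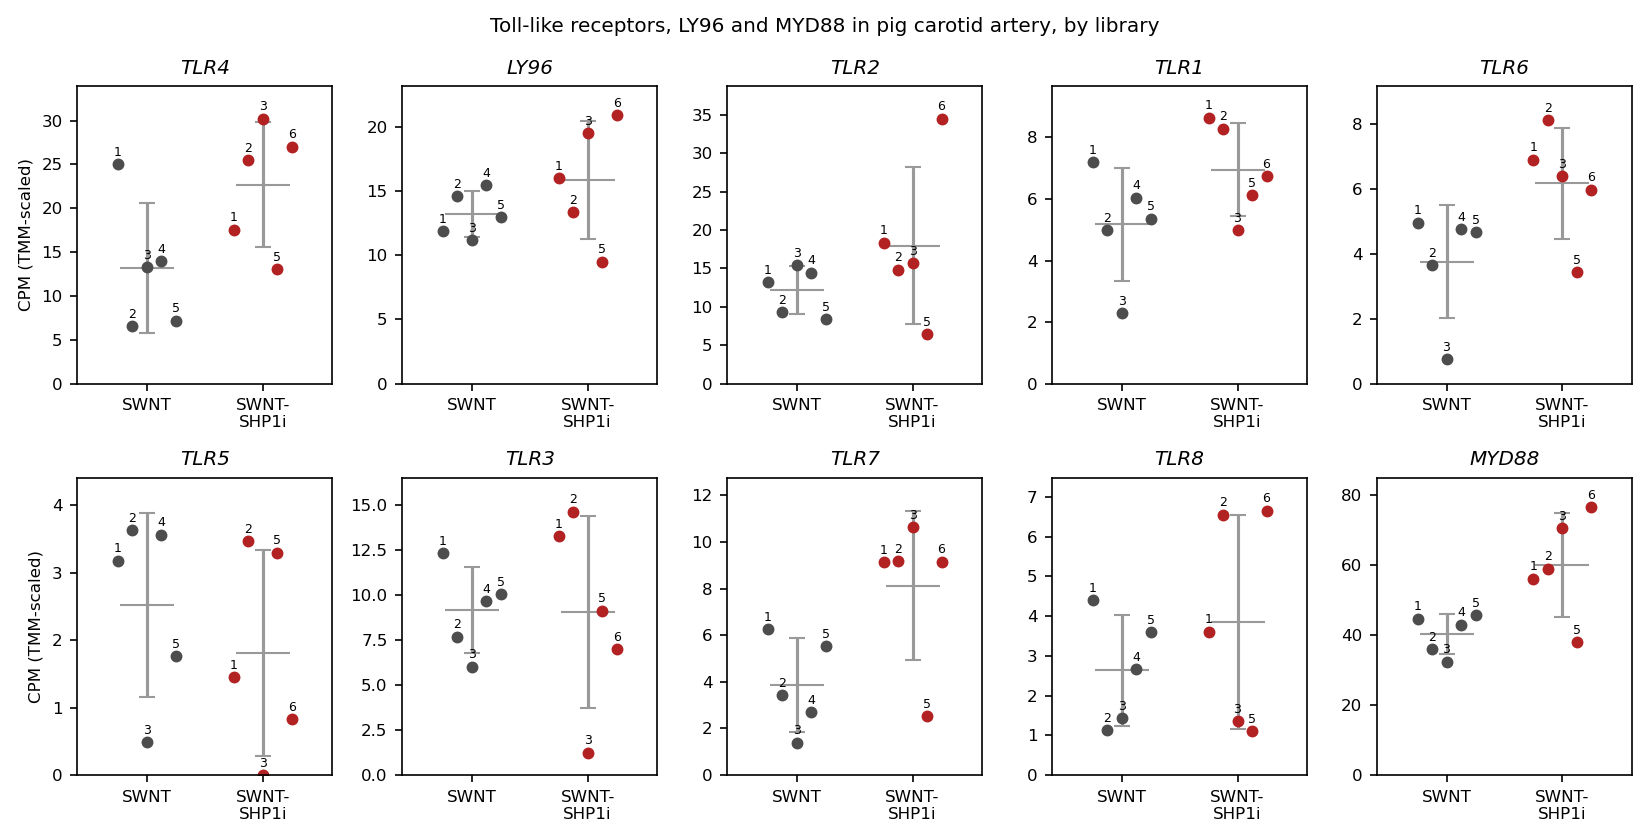
TMM-scaled CPM of each gene (linear axes from 0) in 5 SWNT and 5 SWNT-SHP1i libraries, with replicate numbers beside the points and the mean ± SD as grey bars. TLR7, MYD88, TLR6 and TLR4 had higher means in SWNT-SHP1i, where replicate 5 was the lowest library of that group for each of them, and TLR3 and TLR5 were lowest in SWNT-SHP1i replicate 3.

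TLR4, the lipopolysaccharide receptor, had values of 25, 6.58, 13.3, 14.0 and 7.18 CPM in SWNT replicates 1 to 5. In SWNT-SHP1i replicates 1, 2, 3, 5 and 6 it had 17.5, 25.5, 30.2, 13.0 and 27.0 CPM. SWNT replicate 1 lay within the SWNT-SHP1i range, and 3 of 5 SWNT-SHP1i libraries lay above it, while SWNT replicates 2 and 5 were below every SWNT-SHP1i library. TLR4 had a log2 fold change of 0.78 ± 0.37 (SE), a 1.71-fold difference with a 95% interval of -0.04 to 1.59 on the log2 scale. Its unadjusted p in the edgeR test was 0.0601. With 1 library left out it ran from 0.60 to 1.14, the highest without SWNT replicate 1.

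LY96, without which TLR4 does not hold lipopolysaccharide, varied least between libraries of all members. It stood at 11.9, 14.6, 11.2, 15.5 and 13.0 CPM in SWNT and at 16, 13.4, 19.6, 9.5 and 20.9 CPM in SWNT-SHP1i. Replicate 5 of SWNT-SHP1i had the lowest value of all 10 libraries and replicate 6 the highest. LY96 had a log2 fold change of 0.26 ± 0.24 (95% interval -0.27 to 0.79), and without SWNT-SHP1i replicates 3 and 6 it was -0.02. CD14, which hands lipopolysaccharide to TLR4 and LY96, had 19.1 to 46.0 CPM in SWNT and 51.7, 73.9, 55.5, 17.2 and 243 CPM in SWNT-SHP1i. Its log2 fold change was 1.71 ± 0.56 (unadjusted p = 0.0104 by edgeR) and 0.87 without SWNT-SHP1i replicate 6. LBP, the plasma protein that carries lipopolysaccharide to CD14, was at most 1.24 CPM in any library and at 0 in SWNT-SHP1i replicates 3 and 6.

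The 3 parts of the lipopolysaccharide receptor were also compared within libraries, as ratios. The log2 ratio of LY96 to TLR4, on the log2(CPM + 0.5) scale, was 0.15 ± 0.85 (SD, n = 5) in SWNT, against -0.49 ± 0.29 for SWNT-SHP1i (difference -0.64, two-sided exact permutation p = 0.167, adjusted p = 0.524 over 8 ratios). The log2 ratio of CD14 to TLR4 was 1.09 ± 0.46 (SD, n = 5) and 1.49 ± 1.04 (difference 0.40, exact permutation p = 0.516), and without SWNT-SHP1i replicate 6 the difference was -0.012. Neither difference exceeded the spread between libraries. With 8 ratios, 1 ratio alone could not have reached an adjusted p below 0.0635 in this test. Per kilobase of exon, LY96 was 5.66 to 26.4 times as abundant as TLR4, with a median of 9.62 over 10 libraries.

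TLR2, the shared partner in lipoprotein sensing, had 13.3, 9.32, 15.5, 14.5 and 8.38 CPM in SWNT. In SWNT-SHP1i it had 18.4, 14.9, 15.7, 6.41 and 34.5 CPM, so that replicates 5 and 6 of that group were the lowest and the highest of all libraries. TLR2 had a log2 fold change of 0.56 ± 0.37 (95% interval -0.25 to 1.38), and it was 0.18 without SWNT-SHP1i replicate 6. TLR1, which pairs with TLR2 to bind triacylated lipoproteins, had 7.20, 4.98, 2.28, 6.05 and 5.36 CPM in SWNT and 8.64, 8.29, 5.0, 6.12 and 6.74 CPM in SWNT-SHP1i. Only SWNT replicate 3 stood clearly below the rest. TLR1 had a log2 fold change of 0.43 ± 0.33 (95% interval -0.29 to 1.14), and it was 0.24 without SWNT replicate 3.

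TLR6, which pairs with TLR2 to bind diacylated lipoproteins, had 4.97, 3.66, 0.759, 4.77 and 4.67 CPM in SWNT. In SWNT-SHP1i it had 6.91, 8.14, 6.41, 3.45 and 5.99 CPM, above every SWNT library in 4 of 5 libraries. SWNT replicate 3, with 34 counts, was again the lowest. TLR6 had a log2 fold change of 0.72 ± 0.45 (95% interval -0.27 to 1.70), and 0.45 without that library. The log2 ratio of TLR1 to TLR6 was 0.51 ± 0.37 (SD, n = 5) in SWNT, against 0.18 ± 0.39 for SWNT-SHP1i (difference -0.33, exact permutation p = 0.222). The log2 ratios of TLR1 and TLR6 to TLR2 differed by 0.05 and 0.37 between the groups (exact permutation p = 0.921 and p = 0.587). In all 3 ratios the difference was within the spread between libraries. Per kilobase TLR1 was above TLR6 in every library, by 1.36 to 5.25 times.

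TLR5, the flagellin receptor, was the least abundant member per kilobase. It had 3.18, 3.63, 0.491, 3.56 and 1.77 CPM in SWNT and 1.45, 3.47, 0, 3.30 and 0.832 CPM in SWNT-SHP1i. The value of 0 in SWNT-SHP1i replicate 3 would allow up to 3 counts, or 0.0815 CPM, if every count were independent. The 5th percentile of non-zero counts in that library was 36, so the true limit is not known and may be higher. The 3 libraries that stood apart at low counts (SWNT replicate 3 and SWNT-SHP1i replicates 3 and 6) held the 3 lowest values, at 22, 0 and 20 counts. The other 7 ranged from 1.45 to 3.63 CPM. TLR5 had a log2 fold change of -0.48 ± 0.94 (95% interval -2.52 to 1.56), which was 0.12 without SWNT-SHP1i replicates 3 and 6 and -0.13 when SWNT replicate 3 was left out as well. The part of the low-count pattern of these libraries in the TLR5 values was not tested.

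TLR3, the endosomal receptor of double-stranded RNA, had 12.3, 7.70, 6.03, 9.66 and 10.1 CPM in SWNT and 13.3, 14.6, 1.25, 9.14 and 6.99 CPM in SWNT-SHP1i. Replicate 3 of SWNT-SHP1i had 46 counts, near the lower limit of that library, and replicates 1 and 2 of SWNT-SHP1i were the highest of all. Its log2 fold change was -0.015 ± 0.49 (95% interval -1.08 to 1.05), and its sign depended on the libraries: it was 0.27 without SWNT-SHP1i replicate 3, 0.44 without replicates 3 and 6 of that group and -0.26 without SWNT-SHP1i replicate 2. TICAM1, the adaptor of TLR3, had a log2 fold change of 0.51 ± 0.38 and 0.0060 without SWNT-SHP1i replicate 6, where it stood at 41.6 CPM against 9.05 to 19.1 CPM elsewhere.

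TLR7, an endosomal receptor of single-stranded RNA, had the highest log2 fold change of the members. It had 6.27, 3.42, 1.38, 2.71 and 5.54 CPM in SWNT and 9.12, 9.19, 10.6, 2.52 and 9.15 CPM in SWNT-SHP1i. In 4 of 5 SWNT-SHP1i libraries the value was above every SWNT library, and replicate 5 was below 4 of the SWNT libraries. Its log2 fold change was 1.07 ± 0.47, a 2.10-fold difference with a 95% interval of 0.06 to 2.08. The unadjusted p in the edgeR test was 0.0397 and the adjusted p 0.997. The log2 fold change was 0.74 over the animals with B9 numbers, which leaves out both replicates 3, and 0.65 without SWNT replicate 3 and SWNT-SHP1i replicates 3 and 6.

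TLR8, the neighbour of TLR7 on the X chromosome, also reads single-stranded RNA. It had 4.4, 1.12, 1.43, 2.66 and 3.59 CPM in SWNT and 3.61, 6.55, 1.36, 1.11 and 6.65 CPM in SWNT-SHP1i. Both groups spanned low and high libraries, and the log2 fold change was 0.54 ± 0.59 (95% interval -0.74 to 1.83). It was 0.26 without SWNT-SHP1i replicate 6 or without SWNT-SHP1i replicate 2, and 0.81 without SWNT replicate 1. SWNT-SHP1i replicate 3 had the highest TLR7 of all libraries (392 counts) but only 50 counts of TLR8, a level that carries little precision in that library. The log2 ratio of TLR8 to TLR7 was -0.46 ± 0.53 (SD, n = 5) in SWNT, against -1.12 ± 0.88 for SWNT-SHP1i (difference -0.66, exact permutation p = 0.206, adjusted p = 0.524), and leaving out SWNT-SHP1i replicate 3 made it -0.30. The Y-linked gene KDM5D, looked at after the values were seen because TLR7 and TLR8 are X-linked, ranged from 15.3 to 24.2 CPM in 7 libraries. It was at 0 CPM in SWNT replicate 4, at 0.407 in SWNT-SHP1i replicate 1 and at 1.09 in SWNT-SHP1i replicate 3. Its part in the TLR7 and TLR8 values was not tested.

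TLR9, the receptor of unmethylated DNA, had 2.23 to 5.54 CPM in SWNT and 6.25, 4.67, 12.9, 3.0 and 18.1 CPM in SWNT-SHP1i. Its log2 fold change was 1.37 ± 0.49 (unadjusted p = 0.0162 by edgeR), and 0.43 without SWNT-SHP1i replicates 3 and 6. UNC93B1, the chaperone that brings endosomal TLRs out of the endoplasmic reticulum, had 21.4 to 38.2 CPM in SWNT and 48.0, 51.8, 71.2, 19.8 and 162 CPM in SWNT-SHP1i. Its log2 fold change was 1.28 ± 0.44 (unadjusted p = 0.0124 by edgeR), and 0.72 without replicate 6. For UNC93B1, 4 of 5 SWNT-SHP1i libraries lay above every SWNT library and replicate 5 lay below every one. TLR10, which flanks TLR1, was at 0.27 to 2.92 CPM and had a log2 fold change of 0.05 ± 0.74.

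MYD88 had the smallest unadjusted p of the members. It stood at 44.7, 36.1, 32.5, 43.0 and 45.7 CPM in SWNT and at 56.1, 59.1, 70.6, 37.9 and 76.6 CPM in SWNT-SHP1i. The 4 libraries other than replicate 5 were above every SWNT library. MYD88 had a log2 fold change of 0.57 ± 0.21, a 1.49-fold difference with a 95% interval of 0.12 to 1.03. The unadjusted p in the edgeR test was 0.0178 and the adjusted p 0.997. With 1 library left out it ran from 0.47 to 0.70, the narrowest such range of the members, and it was 0.29 without SWNT replicate 3 and SWNT-SHP1i replicates 3 and 6. The log2 ratio of MYD88 to TICAM1, the adaptors of the 2 branches, was 1.59 ± 0.55 (SD, n = 5) in SWNT, against 1.79 ± 0.55 for SWNT-SHP1i (difference 0.20, exact permutation p = 0.556).

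**Figure D3:**
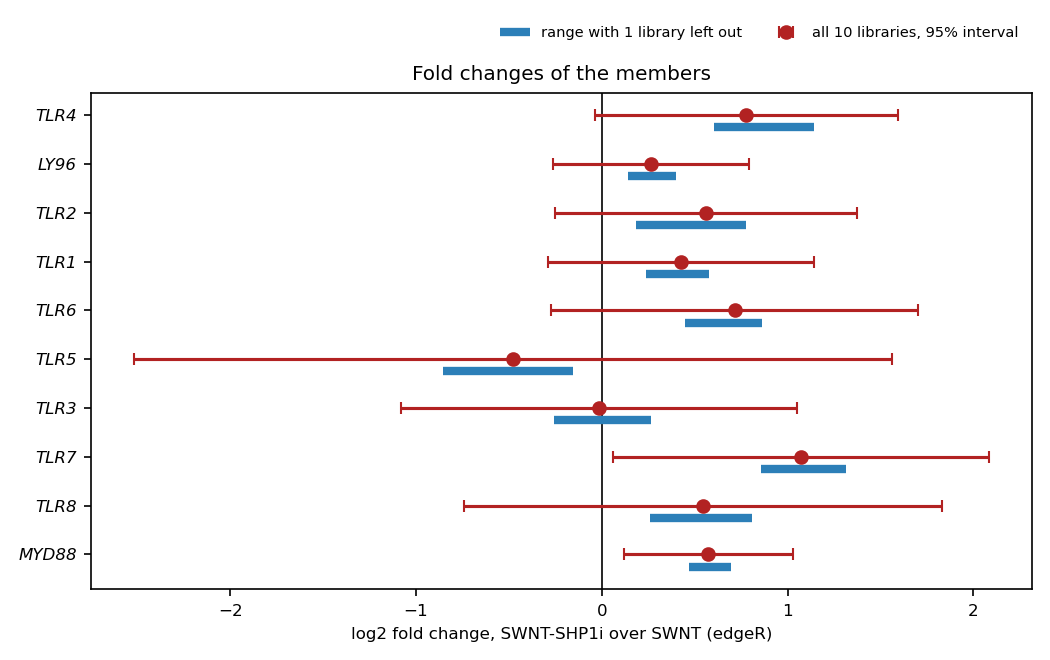
Log2 fold change of each gene, SWNT-SHP1i over SWNT, with its 95% interval over all 10 libraries (red) and, below it, the range of the fold change with 1 library left out (blue). The intervals of TLR7 and MYD88 lie above 0, those of the other 8 include 0, and the blue range of TLR3 spans 0.

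The other genes of the pathway gave 0 calls among 83 tested (0% of all genes were called). The sign of the fold change turned in 45 of the 83 when 1 library or another was left out, in 23 of them without SWNT-SHP1i replicate 6 and in 19 without SWNT replicate 3. The share of all genes that turned in this way was not computed, so the count of 45 is no result about the pathway. Of 12 tested TIR adaptors and kinases, 8 had positive and 4 negative fold changes (median 0.37). TIRAP, the bridge between TLR2 or TLR4 and MYD88, had a log2 fold change of 0.14 ± 0.20, the kinase IRAK1 of 0.36 ± 0.34 (-0.11 without SWNT-SHP1i replicate 6) and the ubiquitin ligase PELI1 of -0.0015 ± 0.24. SARM1, the most distant TIR adaptor, had -0.54 ± 0.28. Of 12 genes of ligand capture and receptor transport, 8 were positive and 4 negative (median 0.06). The most abundant, the TLR chaperones HSP90B1 and CNPY4 and the danger signal HMGB1, had log2 fold changes of -0.15 ± 0.17, 0.04 ± 0.16 and -0.08 ± 0.20.

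Downstream kinases and transcription factors had 14 positive and 6 negative fold changes of 20 (median 0.08), and 10 of each without SWNT-SHP1i replicate 6 (median -0.0083). The most abundant of them were the NF-kB subunits RELA (0.03 ± 0.17) and NFKB2 (0.0081 ± 0.33) and the interferon regulator IRF3 (0.27 ± 0.33). Without SWNT-SHP1i replicate 6, NFKB2 had -0.42 and IRF3 -0.18. Of 7 tested innate receptors outside the members, 5 were positive (median 0.26), with the adaptor of DNA sensing STING1 at 0.57 ± 0.37, NOD1, a sensor of peptidoglycan, at -0.024 ± 0.21 and IFIH1, a sensor of RNA, at 0.26 ± 0.44. STING1 was 0.19 without SWNT-SHP1i replicate 6.

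Genes that TLR signals switch on had 5 positive and 11 negative fold changes of 16 tested (median -0.47), but 10 positive and 6 negative ones without SWNT replicate 3 (median 0.11), which held the highest level of several. CCL20 and IFNB1 were at 0 in every library. CXCL2, a neutrophil chemokine, was at 409 CPM in SWNT replicate 3 and at 2.39 to 11.5 CPM in the other 9, and its log2 fold change of -3.77 ± 1.27 was -0.16 without that library. IL6 had 17.5 CPM there and 0 to 2.08 CPM elsewhere, and its log2 fold change of -2.41 ± 1.36 was 0.35 without it. CXCL8 likewise had 13.5 CPM there and 0.06 to 2.44 CPM elsewhere (log2 fold change -1.28 ± 1.05, and 0.85 without it). TNF was at 0.36 to 3.08 CPM (log2 fold change -0.41 ± 0.55) and IL1B at 0 to 1.74 CPM (-0.61 ± 0.98), so that neither cytokine was abundant in any library. The chemokine CCL2 had 0.72 ± 0.42 and CCL5 had -0.67 ± 0.88, the latter at 0.68 without SWNT replicate 3.

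Brakes on the pathway had 10 positive and 6 negative fold changes of 16 (median 0.10), but 4 positive and 12 negative ones without SWNT-SHP1i replicate 6 (median -0.24). TNFAIP3 (A20), which strips ubiquitin from TLR signalling complexes, stood at 92.1 CPM in SWNT replicate 3 and 6.08 to 17.4 CPM in the other 9 libraries. Its log2 fold change was -1.49 ± 0.56 (unadjusted p = 0.0202 by edgeR) and -0.50 without that library. NFKBIA, the inhibitor that holds NF-kB in the cytoplasm, stood at 338 CPM there and 51.1 to 83.8 CPM elsewhere, with -1.04 ± 0.44, and -0.26 without that library. IRAK3, the kinase-dead IRAK that blocks the MYD88 complex, had 0.05 ± 0.29, and TOLLIP, an adaptor that dampens IRAK activity, 0.25 ± 0.32. TOLLIP was highest in SWNT-SHP1i replicate 6, at 479 CPM, and had -0.19 without that library. DUSP1, a phosphatase of MAP kinases, had -1.23 ± 0.83, and -0.36 without SWNT replicate 3. SWNT replicate 3, with the highest values of TNFAIP3, NFKBIA, CXCL2 and IL6, had the lowest values of TLR1, TLR6, TLR7 and MYD88 among the 10 libraries.

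**Figure D4:**
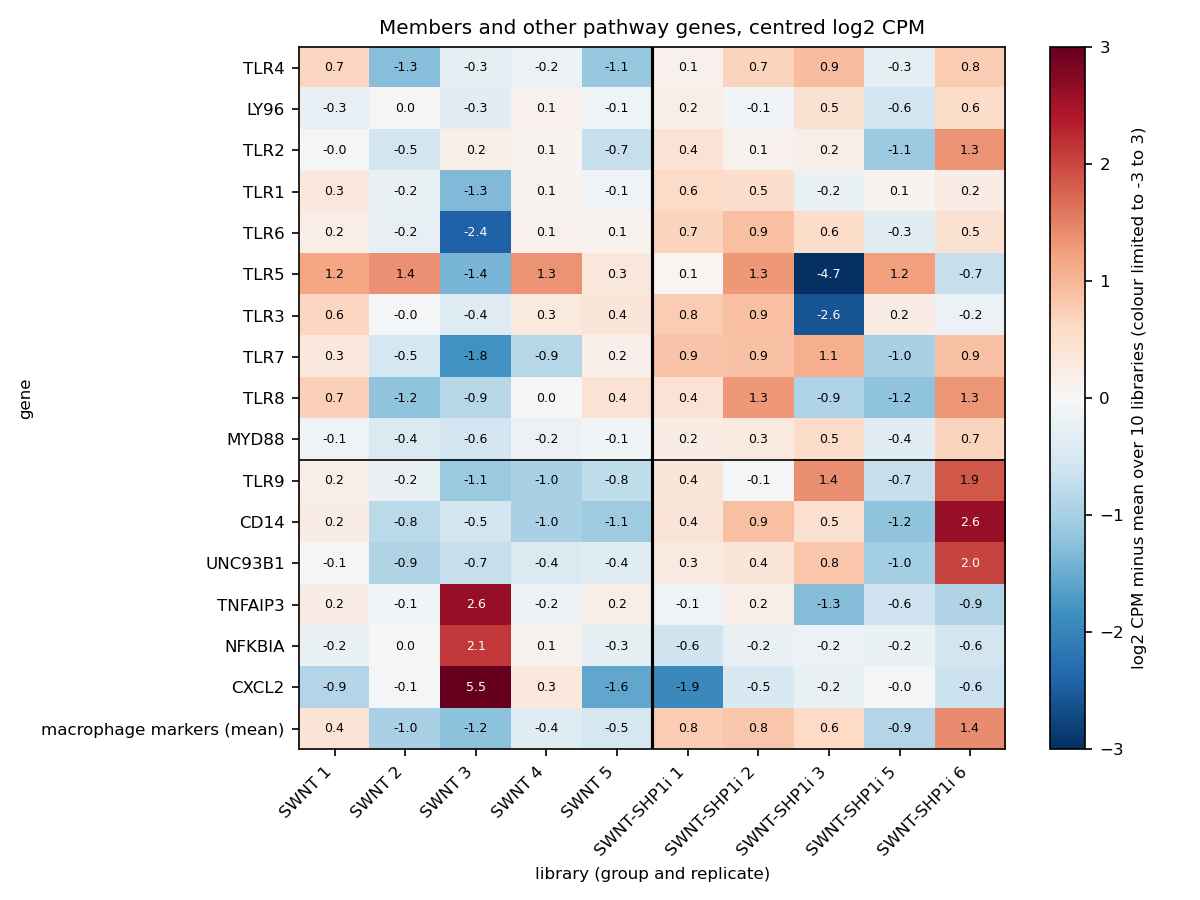
Log2 CPM of each gene minus its mean over the 10 libraries (rows: the 10 members, then 6 other pathway genes and the mean of 17 macrophage markers, columns: libraries, colour limited to -3 to 3). SWNT replicate 3 is low for TLR6 and TLR7 and high for TNFAIP3, NFKBIA and CXCL2, and SWNT-SHP1i replicate 5 is low for most members and for the macrophage markers.

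The order of abundance was read per kilobase of exon, as the mean of CPM per kilobase ± SD over 10 libraries. LY96 came first at 21.9 ± 5.42, above 85.0% of all genes tested, followed by MYD88 at 6.79 ± 2.01. LY96 was above MYD88, and MYD88 above TLR4, in 10 of 10 libraries. Next came TLR4 (2.27 ± 1.07), TLR1 (2.18 ± 0.66), TLR3 (1.88 ± 0.80), TLR2 (1.43 ± 0.74) and TLR7 (1.36 ± 0.77). Neighbours among these 5 receptors exceeded the next in only 5 to 7 of 10 libraries, so their order is not beyond the spread between libraries. TLR6 (1.02 ± 0.43) was below TLR7 in 8 libraries and above TLR8 (0.46 ± 0.30) in 9, and TLR8 was above TLR5 (0.42 ± 0.27) in 7. These levels depend on the annotated exon length, which ran from 664 bases for LY96 to 10550 for TLR2.

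The members were also set against the macrophage markers in each library, as the log2 CPM of the member minus the mean log2 CPM of the 17 markers. That mean was 4.28 ± 0.64 (SD, n = 5) in SWNT, against 5.36 ± 0.85 for SWNT-SHP1i, a difference of 1.09. Relative to it, 9 of 10 members had a lower mean in SWNT-SHP1i. Any gene whose own mean log2 CPM rises by less than 1.09 comes out lower on this scale. The median log2 fold change of all genes tested was 0.0056, so the count of 9 is no result about the members. The share of all genes that would come out lower was not computed. In a two-sided exact permutation test adjusted over the 10 members, 0 of 10 passed. LY96 differed by -0.87 (exact permutation p = 0.0476, adjusted p = 0.198), TLR2 by -0.68 (p = 0.0873 in the same exact test), MYD88 by -0.54 (p = 0.111) and TLR3 by -1.45 (p = 0.0794). TLR7 differed by 0.005 (exact permutation p = 0.984), with -2.49 ± 0.56 (SD, n = 5) in SWNT, against -2.48 ± 0.37 for SWNT-SHP1i. TLR4 and TLR6 differed by -0.20 and -0.19 (exact permutation p = 0.611 and p = 0.651). TLR1 differed by -0.60, TLR8 by -0.73 and TLR5 by -2.22, the last resting on the count of 0 and on the prior count. Without SWNT-SHP1i replicate 5, TLR1 (-0.91) and TLR3 (-1.90) passed (exact permutation, adjusted p = 0.0397 for both). That library had the lowest macrophage marker mean of its group (3.95, against 5.42 to 6.23). Leaving it out therefore raises the mean that is subtracted in SWNT-SHP1i. The share of all genes that would pass in the same way was not computed, so these 2 passes are no result about the members. The differences of TLR1 and TLR3 were smaller without other libraries. TLR3 had -0.83 when SWNT-SHP1i replicate 3 was left out and -0.34 when replicate 6 was left out as well. TLR1 had -0.38 when SWNT-SHP1i replicate 6 was left out and -0.14 when replicate 3 was left out as well. With all 10 libraries, 1 member alone could not have reached an adjusted p below 0.0794 in this test.

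Likeness between genes was measured as the mean absolute difference of centred log2 CPM over the 10 libraries, against 13630 other named genes. Nearest to TLR7 were PDZD4 (0.21) and the macrophage perforin MPEG1 (0.21), where TLR7 itself deviated from its mean by 0.84 on average. Nearest to TLR4 were CD300LB (0.20) and PYROXD2 (0.21), and to TLR8 TMEM273 (0.25) and the lymphocyte receptor LY9 (0.28). MYD88 was nearest to the interferon receptor chain IFNAR2 (0.12) and PLEKHO2 (0.13), LY96 to ECHDC2 (0.08) and WDR46 (0.10). For TLR2 these were PTP4A3 (0.17) and OGFOD3 (0.18), for TLR1 ADAMTS2 (0.13) and OLFML1 (0.15), for TLR6 CRYBG1 and MAD2L1 (0.27 each), for TLR3 PTGER4 (0.23) and SHTN1 (0.27) and for TLR5 LYRM7 (0.26) and RAB3IP (0.34). Among the members themselves the nearest pair was LY96 and MYD88 (0.20), followed by TLR1 and TLR6 (0.34). LY96, MYD88 and TLR1 deviated from their own means by only 0.27, 0.34 and 0.36 on average, and TLR6 by 0.60. Genes that vary little lie near each other by this measure. A small distance alone therefore does not show that genes vary together. All these profiles share the same 10 libraries, their depth and their cell mixture.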

How the data were processed

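Read counts per gene were deposited by the authors as whole numbers, without normalization, in 1 table with exon coordinates and summed exon lengths. The build was Sscrofa11.1 and the tools listed were STAR, Trim Galore and DESeq2, without versions, per the submitters' processing notes. How reads were counted (program, strand, mates and duplicates) is not given in the sources used here. Counts of 1 to 100 were even in 72.9% to 84.9% of cases, so a limit that treats every count as independent may be too low. The upper limit given for TLR5 in SWNT-SHP1i replicate 3 is such a limit and covers counting error only. The intervals of the fold changes came from the edgeR fit and not from counting error alone. All 10 libraries were kept as separate replicates (lowest median chi-square per gene of any pair 5.40). Replicates are different animals, and their numbers, given in accession order, pair none.

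Here, counts were filtered with filterByExpr (minimum count 10, 15930 genes), scaled by TMM and tested with edgeR 4.0.16 (R 4.3.3, robust quasi-likelihood, no covariates, Benjamini-Hochberg over all genes, threshold 0.05). Alternatives included DESeq2 1.42.0 and limma 3.58.1. The SE was taken from each gene's log2 fold change and F statistic. Log2 CPM uses a prior count of 2. Ratios use an offset of 0.5 CPM and exact permutation over 252 assignments (smallest p 0.00794). Names came from the table (17532), an identifier table (223) or position on RefSeq (882, overlap at least 0.5 of the union). Counts of positive and negative fold changes in each list were repeated under every alternative, after the data were seen. The fit was also run on simulated data, and the share of true changes that it recovered is not reported here. Genes named are the members, CD14, LBP, TIRAP, TICAM1, UNC93B1, IRAK3, TNFAIP3, NFKBIA, TNF, IL1B, IL6 and CXCL8, the 3 most abundant per kilobase of each pathway list and of the macrophage and neutrophil markers, any list gene that passed the test, and the 2 nearest genes of each member. TLR9, TLR10, KDM5D and EIF1AY were named after their values were seen. Members and lists were chosen with earlier results of these data known. No sequence table of pig genes was used here.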

Additional observations from a re-analysis of the deposited data

Results flagged for a closer look

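Of 56 groups of 5 values tested for a library far from the others, 3 were marked, and chance marks about 1 in 20. The groups are not independent, since the ratios and the levels relative to macrophage markers reuse the members' values. TLR6 in SWNT replicate 3 had a log2 CPM of -0.30, where the other 4 SWNT libraries had 1.89 to 2.33, and it rests on 34 counts. TLR7 in SWNT-SHP1i replicate 5 had a log2 CPM of 1.36, where the other 4 SWNT-SHP1i libraries had 3.20 to 3.42. The log2 ratio of TLR6 to TLR2 in SWNT replicate 3 was -3.66, where the other 4 SWNT libraries had -1.51 to -0.78. That ratio uses the same 34 counts of TLR6 and is not a separate mark.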

How the results depend on the processing

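The count of 0 members, 0 pathway genes and 0 genes in all with an adjusted p under 0.05 held under all 19 alternatives run. In these, 0 to 5 members had an unadjusted p under 0.05, as did 421 (of 16191) to 1668 (of 24493) of all genes. The lowest adjusted p of any member in these was 0.311 (MYD88). TLR1, TLR2, TLR4, TLR6, TLR7, TLR8 and MYD88 kept positive fold changes in all 19. LY96 reversed to -0.023 without SWNT-SHP1i replicates 3 and 6 and to -0.059 when SWNT replicate 3 was left out as well (an alternative added after seeing the data), and TLR5 to 0.12 in the former. TLR3 reversed to 0.010 with RLE scaling, 0.0098 with DESeq2, 0.35 with limma-voom, 0.15 over animals with B9 numbers, 0.44 without SWNT-SHP1i replicates 3 and 6 and 0.34 without these and SWNT replicate 3. It ran from -0.26 to 0.27 with 1 library left out. Over animals with B9 numbers the ratios TLR1/TLR2 (-0.18), TLR6/TLR2 (-0.14) and MYD88/TICAM1 (-0.14) reversed, as did TLR1/TLR2 with an offset of 2 CPM (-0.024) and TLR1/TLR6 without the 3 libraries (0.011). With 1 library left out TLR1/TLR2 ran from -0.28 to 0.33, TLR6/TLR2 from -0.12 to 0.65, MYD88/TICAM1 from -0.0097 to 0.43 and CD14/TLR4 from -0.012 to 0.68. Relative to macrophage markers TLR7 reversed with a prior count of 8 (-0.016), with the median marker (-0.17), over animals with B9 numbers (-0.26) and without the 3 libraries (-0.12), TLR6 without SWNT-SHP1i replicates 3 and 6 (0.080) and TLR4 without the 3 libraries (0.054). With 1 library left out TLR7 ran from -0.14 to 0.18, TLR6 from -0.51 to 0.026 and TLR4 from -0.38 to 0.015. On this scale 0 to 2 members were called, 2 only without SWNT-SHP1i replicate 5, the library with the lowest marker mean of its group. The cause of these reversals was not tested. No paired analysis was possible because the labels give no replicate numbers that the groups share. Few counts of TLR5, TLR8 and TLR6 limit what these libraries can show for them.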

Other observations

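The labels name no sex. The Y-linked gene EIF1AY, chosen after its values were seen, ranged from 20.7 to 29.6 CPM in 6 libraries. It stood at 0 CPM in SWNT replicate 4, and at 0.102, 5.92 and 9.44 CPM in replicates 1, 3 and 6 of SWNT-SHP1i.

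Dendritic cell markers had positive fold changes in 6 of 7 tested genes, with 0 called and a summed level of 12.2 to 25 CPM in SWNT and 19.1 to 54.7 CPM in SWNT-SHP1i. Without SWNT-SHP1i replicate 6, 4 were positive and 3 negative. B and plasma cell markers, from a lineage that also carries TLR9 and TLR10, had 5 positive and 5 negative fold changes, with 0 called and a summed level of 10.8 to 35.0 CPM in SWNT and 9.80 to 34.8 CPM in SWNT-SHP1i.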
